A study of Mus musculus with 8 samples.

Results

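Cyclin-dependent kinase (CDK) inhibitors are the small proteins that hold the kinases of the cell cycle in check. The 7 genes of the Cdkn1 and Cdkn2 families, Cdkn1a, Cdkn1b, Cdkn1c, Cdkn2a, Cdkn2b, Cdkn2c and Cdkn2d, were followed here among the 21115 probe sets measured on Affymetrix whole-transcript arrays, where each had 1 probe set. Brown adipose tissue, a fat whose cells burn their lipid for warmth, came from 4 GRBATKO and 4 control mice. The GRBATKO mice were made to lack the glucocorticoid receptor in brown fat. The controls are labelled wild type, while the series' design text calls them Flox, the usual name for mice whose target gene is flanked by recombination sites. All 8 mice were 16 to 20 weeks old when moved to 5 °C and were kept there for 1 week, so the controls were cold-exposed as well. The labels do not name the Cre line that deletes the receptor gene. The family was chosen by the genotype difference of Cdkn1a, one of the 5 probe sets that passed the threshold over the whole array (limma adjusted p under 0.05). The differences of the 7 genes between genotypes are therefore given as a description, without p-values.

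The CDK inhibitors fall into a pair of families. The CIP/KIP proteins p21 (Cdkn1a), p27 (Cdkn1b) and p57 (Cdkn1c) bind cyclin-CDK complexes, above all those of Cdk2 with cyclin E or A. The INK4 proteins p16 (Cdkn2a), p15 (Cdkn2b), p18 (Cdkn2c) and p19 (Cdkn2d) bind Cdk4 and Cdk6 and keep D-type cyclins from activating them. When the kinases are inhibited, the retinoblastoma protein stays bound to E2F factors and S-phase genes stay off. Transcription of Cdkn1a is induced by p53 and, in many cell types, by glucocorticoids, and in fat p21 and p27 are known to limit how many adipocytes form.

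RefSeq (GRCm38.p6) lists a pair of start sites for Cdkn1a, 2790 bases apart on chromosome 17. The 300-base windows around both sites are shown because Cdkn1a is the member with the large difference, followed by that of Cdkn1b, its CIP/KIP relative, for comparison. Each window runs from 250 bases before the start site to 50 bases after it, on the + strand. The capitals mark matches on either strand to 5 motifs, chosen after the sequences had been seen. These were CATGNNNNNNCATG (paired CATG cores, as in p53 elements), GGGCGG (GC box), TATAA (TATA box), AGAACA (glucocorticoid receptor hexamer) and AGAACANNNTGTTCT (full glucocorticoid element, which contains the hexamer).
Cdkn1a, upstream start, chr17:29090729-29091028: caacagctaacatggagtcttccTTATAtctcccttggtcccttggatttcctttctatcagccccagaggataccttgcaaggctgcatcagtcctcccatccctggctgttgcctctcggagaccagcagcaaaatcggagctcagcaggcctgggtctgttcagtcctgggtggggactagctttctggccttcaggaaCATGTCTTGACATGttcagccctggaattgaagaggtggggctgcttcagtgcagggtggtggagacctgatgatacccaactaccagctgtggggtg
Cdkn1a, downstream start, chr17:29093519-29093818: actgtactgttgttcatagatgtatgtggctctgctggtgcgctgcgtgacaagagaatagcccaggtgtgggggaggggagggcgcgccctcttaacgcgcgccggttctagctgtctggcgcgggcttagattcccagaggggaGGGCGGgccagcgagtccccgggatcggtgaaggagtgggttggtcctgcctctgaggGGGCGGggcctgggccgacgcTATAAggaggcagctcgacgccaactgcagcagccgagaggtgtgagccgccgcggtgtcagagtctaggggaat
Cdkn1b, chr6:134920151-134920450: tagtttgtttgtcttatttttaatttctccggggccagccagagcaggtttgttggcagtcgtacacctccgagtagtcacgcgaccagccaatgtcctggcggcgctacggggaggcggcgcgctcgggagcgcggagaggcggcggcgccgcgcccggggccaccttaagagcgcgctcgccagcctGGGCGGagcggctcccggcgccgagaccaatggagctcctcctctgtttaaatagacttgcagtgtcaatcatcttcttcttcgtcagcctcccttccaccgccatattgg

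The upstream Cdkn1a window held the paired CATG cores, CATGTCTTGACATG, at position -48 from its start site, and a TATA match on the - strand at -227. The paired cores were found in 0.712% of all 32851 RefSeq windows of that length, and in none of the other 8 windows of the family. Since the motifs were chosen with the sequences in view, nothing is read from that rarity. The downstream Cdkn1a window held GC boxes at -104 and -46 and a TATA match at -25, and the Cdkn1b window held 1 GC box, at -61. The GC box was found in 35.7% of all windows and the TATA letters in 24.9%. No full glucocorticoid element was in any window of the family (it was in 0.00913% of all windows), and the hexamer, found in 19.0% of all windows, was in 1 family window, that of Cdkn2c at -222. These are letter matches only, and sites outside the windows were not searched. The table held windows for 6 of the 7 members.

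The arrays were alike in level, with log2 medians of 4.42 to 4.44 and correlations of 0.990 to 0.993 between arrays. Control 1 and control 4 had a narrower spread, their 25th percentiles being 3.03 and 3.05 where the other 6 arrays had 2.84 to 2.90 in log2. All GRBATKO arrays lay in rows C and D and all control arrays in rows A and B of the array plate, so row and genotype cannot be told apart. The extraction protocol names peritoneal macrophages, but Ucp1, the uncoupling protein, was at rank 1 or 2 of all probe sets in each mouse. Nr3c1, the glucocorticoid receptor gene, fell in GRBATKO tissue, with a difference of -0.86 on the log2 scale (SE 0.08, limma adjusted p = 0.00697). That is 0.549 of the control level, so Nr3c1 RNA remained in the GRBATKO samples. Nr3c1 did not pass without GRBATKO 2, although the difference was again -0.86 (limma adjusted p = 0.0525), nor without both narrow-spread controls (-0.94, limma adjusted p = 0.0624). The labels do not describe how tissue was sampled from each mouse, so part of the spread behind each p-value may be technical.

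Cdkn1a was the 1 inhibitor gene whose groups did not overlap. Its log2 intensities were 8.20, 8.06, 8.23 and 8.14 in GRBATKO mice 1 to 4, against 9.09, 9.27, 9.18 and 8.98 in control mice 1 to 4. Every GRBATKO value lay below every control value, with a gap of 0.754 between the highest GRBATKO and the lowest control mouse, while the range within a group was 0.170 in GRBATKO and 0.284 in control mice. The means were 8.16 ± 0.08 in GRBATKO and 9.13 ± 0.12 in control tissue (SD, n = 4 each). The log2 difference was -0.97 (SE 0.08), that is, 0.509 of the control level. Of the 7 members, 1 had an adjusted p under 0.05 in limma, beside 0.0237% of all probe sets, and 1 had groups that did not overlap, beside 5.64% of all probe sets. Because this contrast chose the family, nothing is read from those counts. The arrays measure whole tissue, in which fewer cells expressing a gene and less RNA per cell cannot be told apart.

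The other CIP/KIP genes differed little between genotypes. Cdkn1b, which codes for p27, had log2 intensities of 5.97, 5.91, 5.99 and 5.70 in GRBATKO mice against 5.69, 5.85, 5.97 and 5.75 in control mice. The groups overlapped over most of their range, and the log2 difference was 0.08 (SE 0.09). Cdkn1c, which codes for p57 and is expressed from the maternal copy only in most tissues, had 6.44, 6.15, 6.24 and 6.44 in GRBATKO against 6.31, 6.10, 6.21 and 6.21 in control mice. GRBATKO 1 and GRBATKO 4 lay above all controls and the other GRBATKO mice lay among them, with a log2 difference of 0.11 (SE 0.09). The signs of these differences were opposite to that of Cdkn1a, but each was close to its own standard error. Both stayed between -0.02 and 0.17 in every alternative tried, and that of Cdkn1b turned negative only when control 1 and control 4 were both left out.

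The groups of all 4 INK4 genes overlapped. Cdkn2c, which codes for p18, averaged 7.15 ± 0.15 in GRBATKO and 7.02 ± 0.10 in control tissue (SD, n = 4 each). GRBATKO 2 and GRBATKO 3, at 7.23 and 7.31, lay above the highest control at 7.12, and the log2 difference was 0.13 (SE 0.09). Cdkn2d, which codes for p19Ink4d, ran from 5.70 to 6.14 in GRBATKO and from 5.61 to 6.05 in control mice. The means were 5.88 ± 0.19 in both groups (SD, n = 4 each), and the log2 difference was -0.00 (SE 0.12). Without control 1 and control 4 the differences were 0.05 for Cdkn2c and -0.12 for Cdkn2d.

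Cdkn2a and Cdkn2b lie side by side on chromosome 4. Cdkn2a had log2 intensities of 2.82, 3.13, 2.89 and 3.10 in GRBATKO mice, against 3.41, 2.97, 3.25 and 3.40 in control mice. Control 2 lay inside the GRBATKO range and the other 3 controls lay above it. The log2 difference was -0.28 (SE 0.12), the second largest in size of the family. It was -0.48 within array column 5, -0.08 within array column 7 and -0.13 without control 1 and control 4. The mean of Cdkn2a stood at percentile 30.0 of all probe sets, below the 40th percentile used as a filter on dim values, which the other 6 members passed. Cdkn2a also codes for the Arf protein from a separate first exon, and its single probe set does not tell the p16 and Arf transcripts apart. Cdkn2b, which codes for p15, had the widest spread of the family, from 4.03 to 4.48 in GRBATKO and from 3.93 to 4.89 in control mice. The log2 difference was -0.16 (SE 0.19), and it was 0.01 without control 1, the mouse at 4.89.

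**Figure D1:**
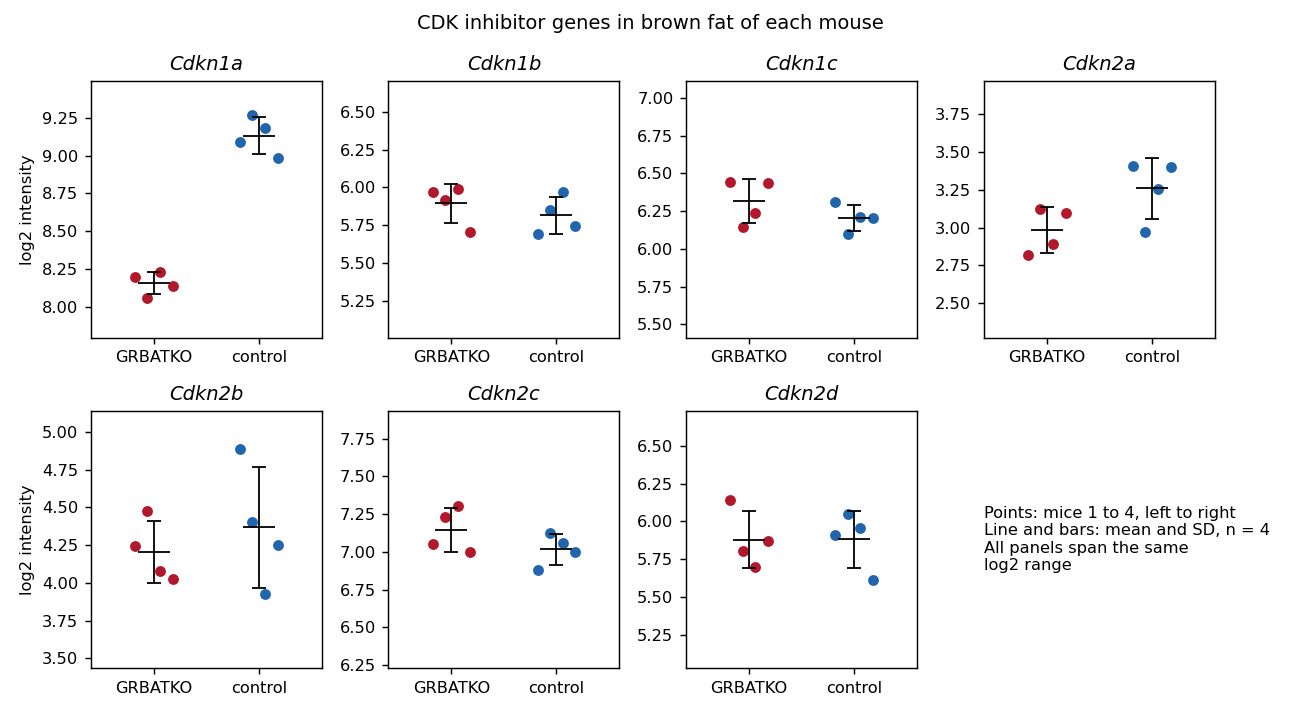
Log2 intensity (vertical axis) of each CDK inhibitor gene in 4 GRBATKO mice (red, left) and 4 control mice (blue, right). Points are mice 1 to 4, the line and bars are the mean and SD (n = 4), and all panels span the same log2 range. Only in the Cdkn1a panel do the groups not overlap, with GRBATKO mice from 8.06 to 8.23 and control mice from 8.98 to 9.27.

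Position on the array plate gave a comparison of the members that played no part in their choice. Array column 5 held mice 1 and 3 and column 7 held mice 2 and 4 of both groups. In a fit with genotype and column as terms, column 7 minus column 5 was -0.06 (SE 0.09) for Cdkn1a and lay between -0.10 and 0.06 for the other 6 members. None passed (limma adjusted p = 1.0 for each), and no probe set on the array did, 0.0% of 21115, although 758 (3.59%) had an unadjusted p under 0.05. The Cdkn1a difference between genotypes was -0.92 within column 5 and -1.03 within column 7. These within-column differences are parts of the contrast that chose the family, so nothing is read from their like size. For Cdkn1b the within-column differences were 0.15 and 0.01, and for Cdkn2c they were 0.21 and 0.05.

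**Figure D2:**
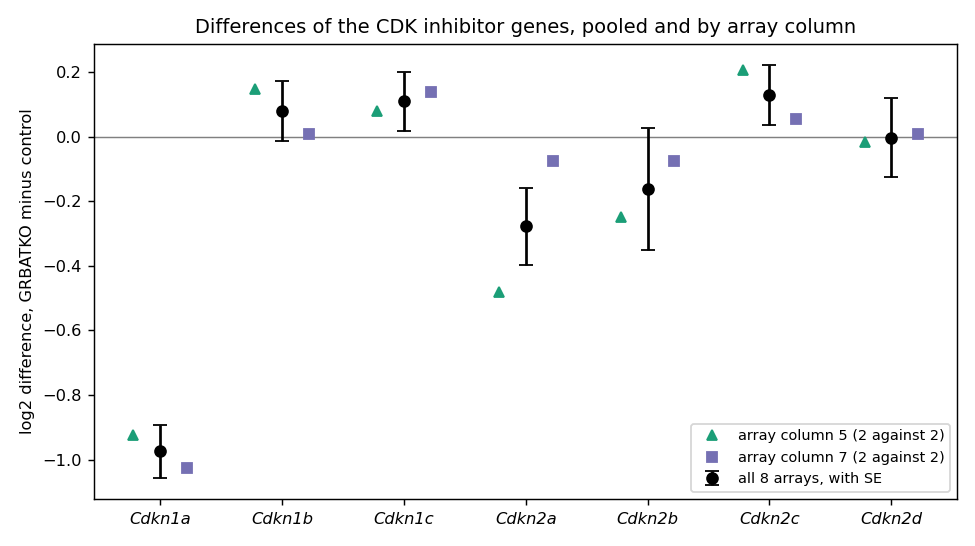
Log2 difference, GRBATKO minus control (vertical axis), of the 7 CDK inhibitor genes. Black points with SE bars use all 8 arrays, and green triangles and purple squares use the 4 arrays of column 5 and of column 7. Cdkn1a lies between -1.03 and -0.92 in all cases, and the other members lie between -0.48 and 0.21. The column values are parts of the contrast that chose the family.

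None of the cyclins, kinases or other genes around the inhibitors changed past the threshold. The 7 lists of such genes had 121 measured genes, 57 higher and 64 lower in GRBATKO tissue, with none past an adjusted p of 0.05 in limma. The smallest adjusted p was 0.338, for Dtl. At an unadjusted p under 0.05 there were 19 of them (15.7%), 10 higher and 9 lower, beside 8.62% of all probe sets. Groups did not overlap in 9 of the 121 (7.44%), beside the 5.64% of all probe sets. The median difference over all probe sets was -0.00, and 50.6% of them were below 0.

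Of 19 measured kinases, cyclins and their activating or inhibiting enzymes, 11 were higher and 8 lower in GRBATKO tissue, with a median difference of 0.06. Cdk4 and Cdk6, the targets of the INK4 proteins, differed by -0.01 (SE 0.07) and 0.06 (SE 0.10), and Cdk2, the main target of p21 and p27, by 0.05 (SE 0.10). The smallest p of the list was that of Ccnd1, which codes for cyclin D1. Ccnd1 had 7.51, 7.46, 7.28 and 7.52 in GRBATKO mice against 7.90, 7.91, 7.68 and 7.68 in control mice, so the groups did not overlap. The log2 difference of Ccnd1 was -0.35 (SE 0.09, limma adjusted p = 0.355). The other D-type cyclins, Ccnd2 and Ccnd3, differed by 0.13 (SE 0.12) and 0.09 (SE 0.09). Both signs turned within array column 5, where Ccnd2 differed by -0.08 and Ccnd3 by -0.03.

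The kinase Wee1, which holds Cdk1 and Cdk2 inactive by phosphorylation, had 5.78, 5.58, 5.40 and 5.51 in GRBATKO against 5.37, 5.25, 5.17 and 5.05 in control mice. The groups did not overlap, and the log2 difference of Wee1 was 0.35 (SE 0.10, limma adjusted p = 0.420). Ccne1, which codes for cyclin E1, the partner of Cdk2 at entry into S phase, differed by 0.31 (SE 0.11, limma adjusted p = 0.517). Of the partners needed later in the cycle, Ccna2 (cyclin A2) differed by -0.42 (SE 0.21) and Cdk1 by -0.02 (SE 0.10). The Ccna2 difference was -0.67 within array column 5, -0.18 within array column 7 and -0.22 without control 1, which held 4.93 against 3.82 to 4.32 in the other controls.

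Downstream of the kinases, 9 of 16 measured retinoblastoma and E2F genes were higher and 7 lower, with a median difference of 0.04. Without control 1 the list had 9 genes lower and a median of -0.02, and without control 1 and control 4 it again had 9 lower, with a median of -0.06. Rb1, the retinoblastoma gene, differed by 0.15 (SE 0.09), E2f1 by -0.19 (SE 0.13) and the mostly repressive E2f4 by -0.02 (SE 0.08). The mean of E2f1 stood at percentile 35.9, also below the filter on dim values. The list's smallest p-values were those of E2f5, with a difference of 0.23 (SE 0.09), and E2f7, with -0.27 (SE 0.11), neither past the threshold. Of 19 measured DNA replication and mitosis genes, 15 were lower in GRBATKO tissue and 4 higher, with a median difference of -0.13 and none past the threshold. Rrm2, a subunit of ribonucleotide reductase, differed by -0.46 (SE 0.18) and the mitotic motor Kif11 by -0.44 (SE 0.17). Without control 1 the Kif11 difference was -0.28. The proliferation marker Mki67 had 3.97, 4.36, 4.12 and 4.18 in GRBATKO against 5.30, 4.73, 4.49 and 4.10 in control mice. The groups overlapped through control 4, and control 1 was the highest. The log2 difference of Mki67 was -0.50 (SE 0.22, limma adjusted p = 0.575), and it was -0.28 without control 1. The list median was -0.07 without control 1 and control 4, -0.32 within array column 5 and -0.08 within array column 7.

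Genes of the p53 pathway, which also induces Cdkn1a, were likewise not past the threshold. Of 21 measured genes of that pathway, 12 were higher and 9 lower, with a median difference of 0.05, which was -0.01 without control 1. Mdm2, a p53 target that codes for the ligase degrading p53, had 7.65, 7.65, 7.71 and 7.69 in GRBATKO against 7.72, 7.93, 7.87 and 7.73 in control mice. The groups did not overlap, by a small margin, and Mdm2 differed by -0.14 (SE 0.07, limma adjusted p = 0.642). The p53 target Ccng1 (cyclin G1) differed by -0.01 (SE 0.08), the p53-induced ribonucleotide reductase subunit Rrm2b by 0.35 (SE 0.15) and the p53 inhibitor Mdm4 by 0.17 (SE 0.08). The Rrm2b difference was 0.11 without control 1 and control 4. The remaining 2 entries of this list were not analysed here.

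Of 20 transcription and chromatin factors known to control the inhibitor genes, 11 were higher and 9 lower, with a median difference of 0.02, which was -0.02 within array column 7. Foxo1 and Foxo3, which can induce Cdkn1a and Cdkn1b, differed by -0.03 (SE 0.09) and 0.03 (SE 0.10), and Cebpb by 0.01 (SE 0.09). Ezh2, the Polycomb methyltransferase that represses the Cdkn2a and Cdkn2b locus, had 6.30, 6.28, 6.29 and 6.37 in GRBATKO against 5.95, 6.14, 6.12 and 6.22 in control mice. The groups did not overlap, and the log2 difference of Ezh2 was 0.20 (SE 0.08, limma adjusted p = 0.541). Sp3, a GC box binding factor, differed by 0.12 (SE 0.07).

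Of 12 measured parts of the ubiquitin ligases that degrade the CIP/KIP proteins, 6 were higher and 6 lower, with a median difference of 0.00. Dtl, which codes for the CRL4 substrate receptor that targets p21, had 5.00, 5.21, 5.10 and 4.85 in GRBATKO against 4.78, 4.60, 4.65 and 4.70 in control mice. The groups did not overlap, and the log2 difference of Dtl was 0.36 (SE 0.09, limma adjusted p = 0.338). Skp2, the F-box protein that targets p27, differed by -0.23 (SE 0.12), its cofactor Cks1b by -0.11 (SE 0.17) and the adaptor Skp1 by 0.16 (SE 0.08). Of 14 measured senescence-associated genes, 4 were higher and 10 lower, with a median difference of -0.08. Without control 1 the list had 7 genes lower and a median of -0.03, and without control 1 and control 4 it had 7 lower and a median of -0.01. The means of 5 of the 14 stood below the filter on dim values. Glb1, the source of senescence-associated beta-galactosidase, differed by 0.21 (SE 0.08) and the cytokine Tnf by -0.44 (SE 0.19), neither past the threshold. Without control 1 and control 4 the Tnf difference was -0.16, and the mean of Tnf stood at percentile 38.9, below that filter.

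**Figure D3:**
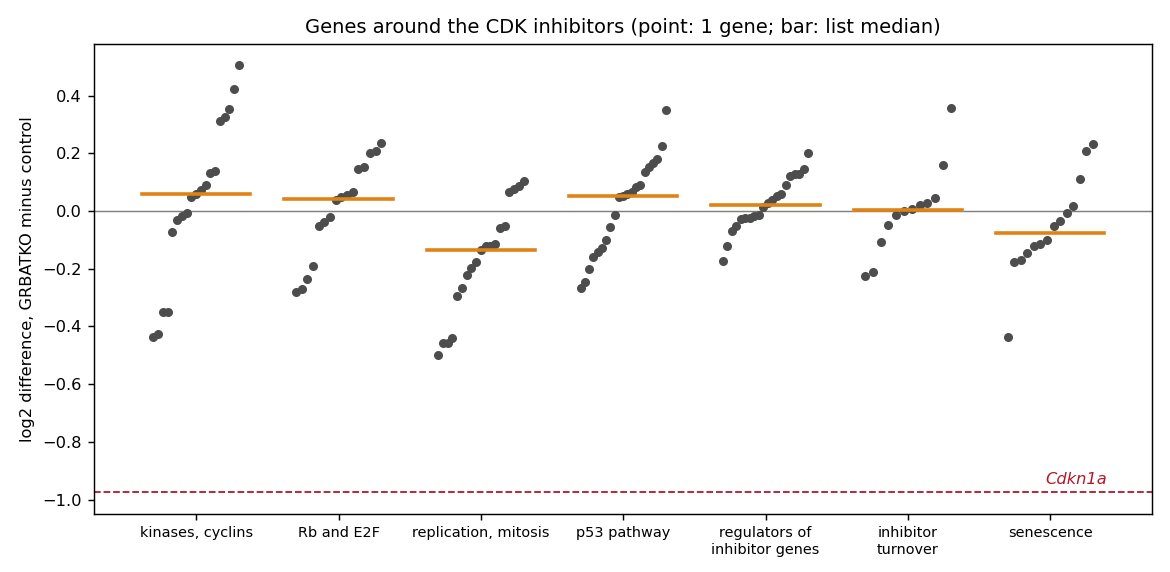
Log2 difference, GRBATKO minus control (vertical axis), of 121 genes in 7 lists (horizontal axis), with points ordered by size within a list. Orange bars are list medians, from -0.13 for replication and mitosis to 0.06 for kinases and cyclins, and the dashed line is the Cdkn1a difference of -0.97, which lies below every point.

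Genes next to Cdkn1a differed in both directions. Of its 5 nearest measured genes on either side on chromosome 17, none passed the threshold (smallest limma adjusted p = 0.503), and 3 had an unadjusted p under 0.05, beside 8.62% of all probe sets. The differences of the 10 ran from -0.46 to 0.61. The nearest measured gene on one side, the splicing factor gene Srsf3, had 4.67, 4.42, 4.19 and 4.21 in GRBATKO against 3.61, 4.12, 3.14 and 4.19 in control mice. The lowest GRBATKO and the highest control value both rounded to 4.19, and the log2 difference was 0.61 (SE 0.22, limma adjusted p = 0.531), or 0.40 without control 3. It was 1.06 within array column 5 and 0.16 within array column 7. The nearest on the other side, Rab44, differed by 0.02 (SE 0.09), and its mean stood at percentile 36.2, below the filter on dim values. Groups did not overlap in 4 of the 10 neighbours, 3 higher (beside 3.22% of all probe sets) and 1 lower (beside 2.42%).

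**Figure D4:**
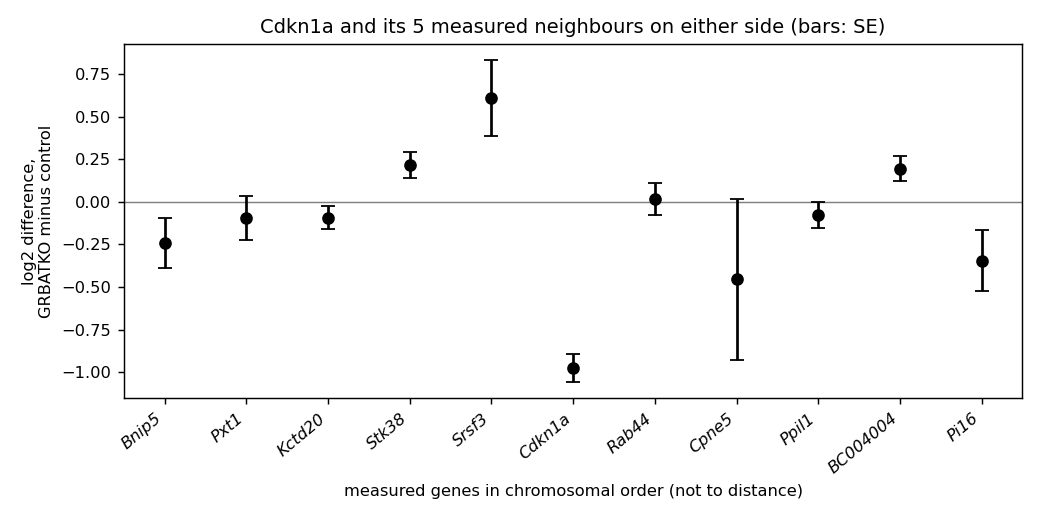
Log2 difference, GRBATKO minus control, with SE (vertical axis), of Cdkn1a and its 5 nearest measured genes on either side, in chromosomal order and not to distance. Cdkn1a stands at -0.97 between Srsf3 at 0.61 and Rab44 at 0.02.

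Genes with values most like those of Cdkn1a were found by the root mean square difference of log2 values over the 8 arrays, each gene first centred on its own mean. Among 20404 other named probe sets the median of this distance was 0.516. The nearest was Nr3c1 itself, at 0.109, with 7.81, 7.72, 7.61 and 7.83 in GRBATKO against 8.56, 8.67, 8.68 and 8.51 in control mice. Within groups their orders differed, since GRBATKO 3 was the lowest GRBATKO mouse for Nr3c1 and the highest for Cdkn1a. Next were the acyl-CoA synthetase gene Acss3 at 0.169, Trim67 at 0.189, the proline oxidase gene Prodh at 0.191 and the amino acid transporter gene Slc43a2 at 0.221. On the log2 scale Acss3 differed by -0.70 (SE 0.10), Trim67 by -0.75 (SE 0.12), Prodh by -1.08 (SE 0.15) and Slc43a2 by -0.63 (SE 0.11). All 4 missed the threshold in the fit described (limma adjusted p = 0.088, 0.154, 0.081 and 0.168, in that order). With an intensity trend in the variance prior Acss3, Prodh and Slc43a2 passed (limma adjusted p = 0.0147, 0.0178 and 0.0343), and Acss3 and Prodh also passed with dim probe sets left out and after repeated quantile normalization. This distance includes the genotype difference by which Cdkn1a was chosen, so genes of similar difference rank near it by construction. For that reason nothing is read from the p-values of these genes. Of the other inhibitor genes Cdkn2a came nearest, at a distance of 0.421 and rank 1287, and the remaining 5 had distances of 0.503 to 0.564 and ranks of 8416 to 15750.

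**Figure D5:**
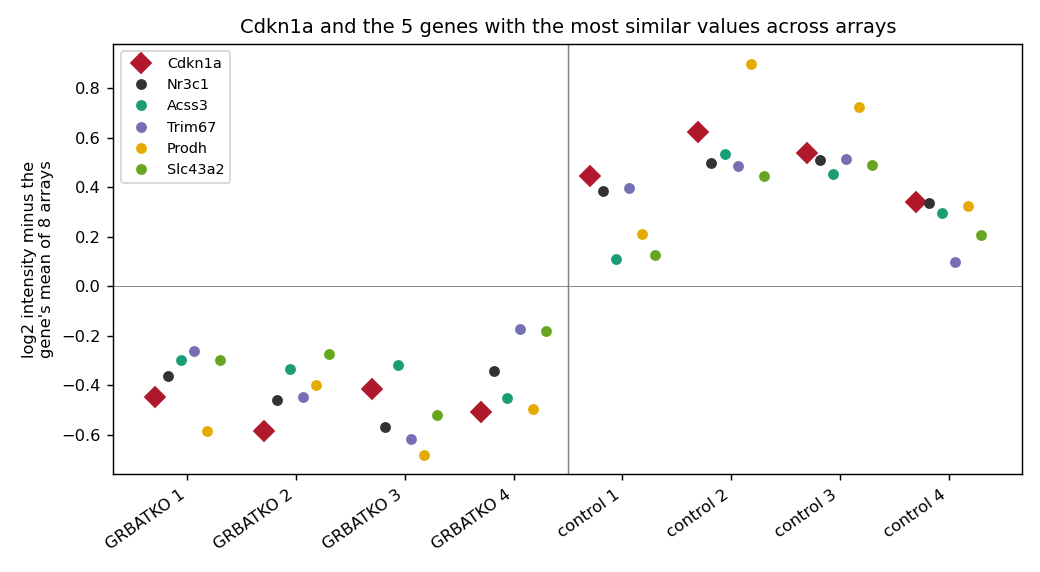
Log2 intensity minus the gene's mean of 8 arrays (vertical axis) on each array, GRBATKO left and control right. Red diamonds are Cdkn1a, and circles are the 5 genes of smallest distance from it, from Nr3c1 at 0.109 to Slc43a2 at 0.221; all 6 genes are below 0 in every GRBATKO mouse and above 0 in every control mouse.

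Markers of other cell types were compared because a whole depot holds several. Of 73 measured markers in 10 lists none passed the threshold. Summed linear intensities overlapped between groups in 9 lists. In the tenth, smooth muscle and pericyte markers, the sums ran from 1683 to 1927 in GRBATKO and from 1951 to 2719 in control mice, with 5 of 7 markers lower and a list median of -0.39. The groups overlapped for each of the 7 markers taken singly. The list median was -0.31 without control 1, -0.0015 without control 4 and 0.17 without both. With both left out Cdkn1a differed by -1.07. The part of these markers in the Cdkn1a difference was not tested, nor was that of the lists that follow. Lymphocyte marker sums ran from 105.5 to 277.1 in GRBATKO and from 108.9 to 130.7 in control mice, the highest being GRBATKO 2, with 9 of 9 markers higher and a list median of 0.25. Without GRBATKO 2 that median was -0.11, and Cdkn1a differed by -0.94. Skeletal muscle sums ran from 90.5 to 605 in GRBATKO and from 94.8 to 1993 in control mice, the highest being control 3, without which Cdkn1a differed by -0.96. Brown adipocyte marker sums ran from 28150 to 28970 in GRBATKO and from 27180 to 28360 in control mice. Of these 10 markers 8 were higher and 2 lower, with a list median of 0.06. Without control 1 and control 4 there were 6 lower and the median was -0.02. Adipoq, the adiponectin gene, differed by 0.10 (SE 0.07), and Dio2, the lowest of the list, by -0.53 (SE 0.21, limma adjusted p = 0.561).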

How the data were processed

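Each deposited value is a probe set intensity that the authors computed by RMA (a multi-array summary of probes), per the submitters' processing notes, which as used here name no version or genome build. The values, from 2.07 to 9168.5, were read as RMA output returned to a linear scale, and log2 was taken again. The platform annotation named 20405 of 21115 probe sets. Differences, GRBATKO minus control, were fitted in R 4.3.3 by limma 3.58.1 (functions lmFit and eBayes, genotype as the only term, 6 residual degrees of freedom, prior worth 3.46) over all probe sets, with Benjamini-Hochberg adjustment and a threshold of 0.05. No background level was used, and precision is limited by the 8 arrays. The members and gene lists were chosen with earlier results of these data known. Named were the members, a fixed set of partner genes, from each list the genes past the threshold or else the 2 of smallest p, the nearest neighbours of Cdkn1a and the 5 genes most like it. The fit was tested on simulated data. RefSeq windows and gene order come from GRCm38.p6. Alternatives changed the variance model, scaling, dim filter, blocks and arrays used.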

Additional observations from a re-analysis of the deposited data

How the results depend on the processing

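The Cdkn1a difference stayed between -1.07 and -0.92 in all 20 alternatives, each within 1 SD of the -0.97 given. It could not move where only the variance prior, its moderation, the dim filter or a block balanced over genotype was changed. The differences of Cdkn1b, Cdkn1c, Cdkn2b, Cdkn2c and Cdkn2d also stayed within 1 SD, while Cdkn2a moved by more within each array column. For Cdkn1b, Cdkn2b and Cdkn2d that SD was larger than the difference itself, so a changed sign still counted as within it. Their differences ran from -0.015 to 0.148, from -0.307 to 0.039 and from -0.125 to 0.058, in that order. The number of family members past the adjusted threshold, 1 in the fit described, was 1 in 16 alternatives. It was 0 with no variance moderation, 0 with a replicate block, 0 within array column 5 and 0 within array column 7. Each of these has fewer degrees of freedom. So do the array column block, the fits without 1 array and the fit without both narrow-spread controls, in which Cdkn1a passed. Because this contrast chose Cdkn1a, the count shows only how its call depends on the processing. The 5 probe sets past the threshold became 30 with an intensity trend in the variance prior, 14 with dim probe sets left out and 8 after repeated quantile normalization. They became 1 with no variance moderation, 1 with a replicate block, 0 within array column 5, 1 within array column 7 and 3 without both narrow-spread control arrays. Leaving out 1 array at a time gave 3 to 5, the 3 without GRBATKO 2. No pathway gene passed in any of the 20 alternatives and no neighbour of Cdkn1a in the 10 tried for them. The 5 genes most like Cdkn1a were the same after median centring. Deviations of same-numbered arrays correlated at -0.0564 to 0.0924 over all probe sets, and 1 of 4 GRBATKO arrays correlated best with its own number, so the numbers were not taken to pair the mice.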
